A study of Mus musculus with 4 samples.

Results

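The genes described here are 8 members of the inflammasome and pyroptosis machinery, Nlrp3, Nlrc4, Aim2, Pycard, Casp1, Casp4, Gsdmd and Il18, chosen by name from the 37074 gene names on the array. They were chosen because of their values on these arrays, so their levels and differences are given as a description, and no test was applied to them. Inflammasomes are protein complexes in which a cytosolic sensor recruits the adaptor encoded by Pycard (ASC) and activates the protease caspase-1. Caspase-1 cuts the precursors of interleukin-1β and interleukin-18 into their secreted forms, and it also cuts gasdermin D, whose amino-terminal fragment opens pores in the plasma membrane and lyses the cell. Mouse caspase-11, the product of Casp4, cuts gasdermin D directly after it has bound bacterial lipopolysaccharide in the cytosol, which is called the non-canonical pathway. In the liver this machinery is best known from Kupffer cells and other myeloid cells.

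The study examined the loss of dynamin-related protein 1 (Drp1, gene Dnm1l), a mitochondrial fission GTPase, in mouse liver and asked which genes it alters in primary hepatocytes. Hepatocytes of C57BL/6 mice, described in the study as male, were isolated by collagenase perfusion and low-speed centrifugation and were harvested 24 h after seeding. The knockout cells came from Drp1LiKO mice, which carry Alb-Cre and floxed Drp1 alleles. The control cells came from floxed littermates, labelled wild-type or Drp1flox. The 4 groups were control, Drp1LiKO, control with 200 μM palmitate (a saturated fatty acid) and Drp1LiKO with 200 μM palmitate, and 1 array per group was hybridised with Cy3-labelled RNA. The age of the mice is not given in the sources used here. Cre under the albumin promoter acts in hepatocytes, so other liver cells carried over into the culture would keep their floxed alleles. The labels state that the raw data of the untreated control array also belong to another sample record.

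The 4 arrays were of like brightness, with 44.7% to 51.1% of 56605 probes well above background and no saturated spot. Levels are given as fluorescence intensity and as log2 intensity minus the 75th percentile of that array, so that 0 is the level of a probe at the 75th percentile. A probe that the scanner software flagged as well above background on an array is called lit there. A difference was counted when it reached 2-fold and at least 1 of the arrays compared was lit. With 1 array per group there was no spread between replicates to set a difference against, and a value had only the scanner's own spot error. Repeated spots of a probe on 1 array had a median SD of 0.03 to 0.04 on the log2 scale, which covers the slide surface but neither the RNA nor the animal. Both untreated arrays lay on 1 slide and both palmitate arrays on another, so genotype was compared within a slide, whereas palmitate and slide cannot be told apart. Control lay at position 1 and Drp1LiKO at position 3 of each slide. With 1 array per group, genotype cannot be told apart from that position, the animal or the cell preparation. Dnm1l itself read 2.42, 1.07, 2.43 and 1.01 in control, Drp1LiKO, control with palmitate and Drp1LiKO with palmitate, which is the order of the arrays throughout, and was lower by genotype on both slides (log2 difference -1.35 and -1.42).

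The probes that carry the account are shown by their first 30 bases in the order printed on the array, with their mm9 position from the array annotation. The inflammatory caspases are close relatives, so the letters let the Casp1 and Casp4 probes be told apart, and the Gsdmd, Pycard, Aim2 and Il18 probes are those that represent their genes. The whole 60-base Casp1 and Casp4 probes share no run longer than 6 bases. The probes were compared only with each other, so binding to the transcript of a related caspase was not tested. No letters are in capitals because no motif is marked.
Casp1, chr9:5307206-5307265, plus strand: ctatgctgagaatcgtgccaataagaagcc
Casp4, chr9:5336658-5336717, plus strand: ccagcctaagcaacacagtgggattctgtt
Gsdmd, chr15:75697536-75697595, plus strand: tgctagaagaatgtggcctaaggctgcagg
Pycard, chr7:135136241-135136300, minus strand: acctgcaaggactccctcctccaggccttg
Aim2, chr1:175385660-175385719, plus strand: cgtctgcagtgaccaaggccattaatattt
Il18, chr9:50389886-50389942, plus strand: tttccataacagaatacccgaggctgcatg

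The members did not move together. The caspases Casp4 and Casp1 were higher on both Drp1LiKO arrays than on the control array of the same slide, whereas the adaptor Pycard, the pore former Gsdmd and the cytokine Il18 lay within 1.32-fold of the control under either condition. The probes of the sensors Nlrp3 and Nlrc4 were lit on no array, and Aim2 was lit on 1 array. In untreated cells 3 of the 6 members measured passed 2-fold, Casp4, Casp1 and Aim2, and all 3 were higher in Drp1LiKO. Among all 19875 genes measured in that comparison 14.4% passed 2-fold, 8.84% higher and 5.58% lower. Under palmitate 2 of 5 measured members passed, Casp4 and Casp1, both higher, beside 11.5% of all genes, 7.26% higher and 4.26% lower. The median difference of the measured members was 1.31 in untreated and 0.01 in palmitate-treated cells, beside -0.02 and -0.03 for all genes. The untreated median includes Casp1 and Aim2, which counted as measured through the Drp1LiKO array alone. Under palmitate this held for Casp1, and Aim2 was no longer in the measured set. For this reason, and since these contrasts chose the members, nothing is read from the counts or the medians.

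**Figure D1:**
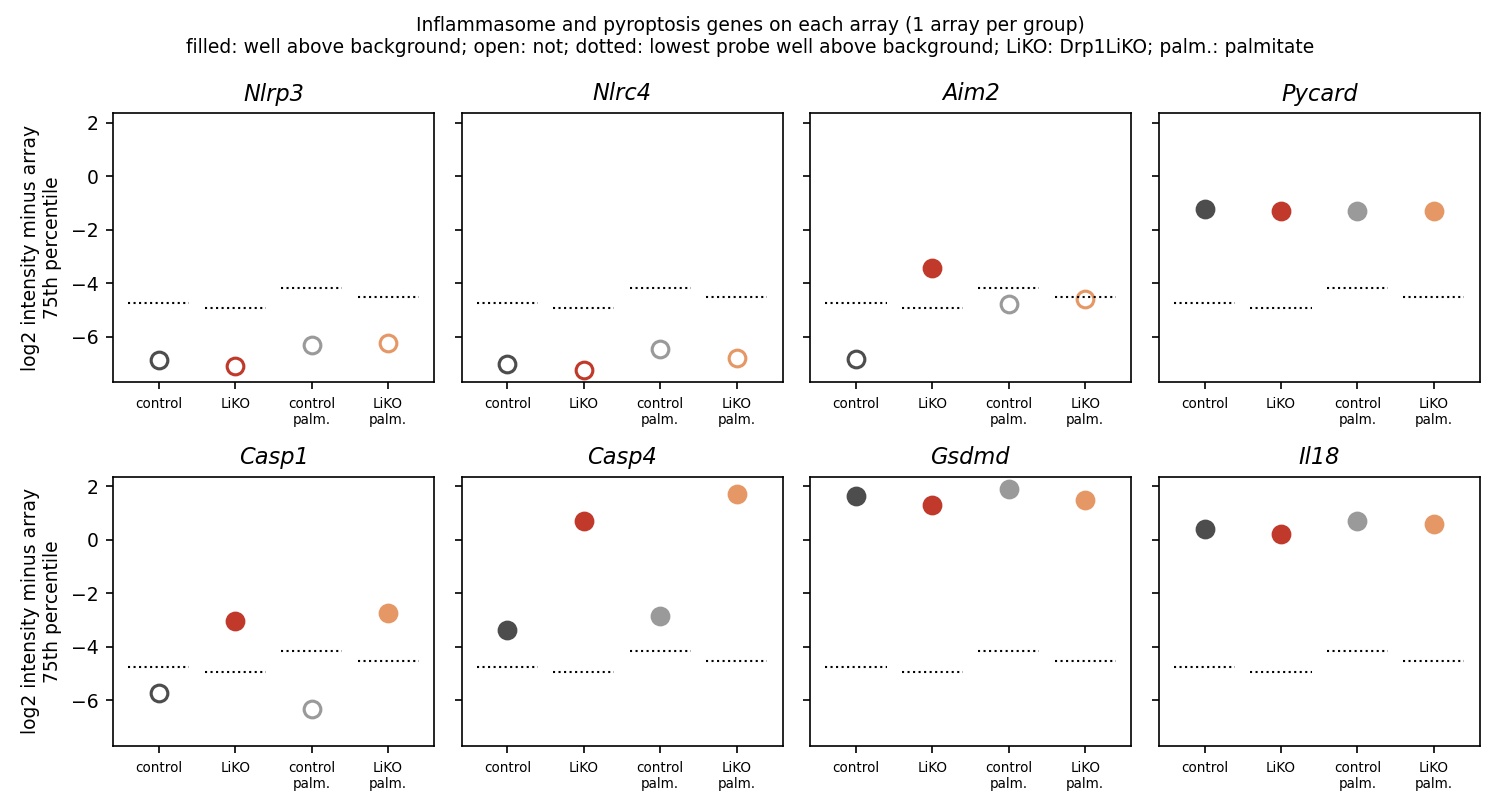
Level of each gene on the 4 arrays, as log2 intensity minus the array's 75th percentile, for the probe that represents the gene (for Nlrp3 and Nlrc4, the only probe). Each point is 1 array; filled points are well above background, open points are not, and dotted lines mark the dimmest probe well above background on that array. Casp4 runs from -3.38 in control to 1.70 in Drp1LiKO with palmitate, while Pycard stays between -1.32 and -1.22.

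Of the sensors, Nlrp3, which forms an inflammasome upon potassium efflux and mitochondrial damage, had 1 probe, with intensities of 4.15, 3.93, 5.31 and 6.25. Nlrc4, which works with NAIP proteins that bind bacterial flagellin and secretion system parts, had 1 probe with intensities of 3.73, 3.56, 4.76 and 4.15. All 8 values lay under the dimmest probe well above background on their array, which was at 17.7 to 23.6, so neither gene has more than an upper bound in any group and no fold is given. Aim2, which binds double-stranded DNA in the cytosol, had intensities of 4.23, 50.2, 15.3 and 19.2 on its brighter probe. It was well above background only on the untreated Drp1LiKO array, where it was at least 2.47-fold higher than in control, with normalised levels of -3.43 and -6.84. With normexp background correction its log2 difference was 0.60, under the threshold. Normexp was run with an offset of 50 added to every intensity, which by itself narrows differences between dim spots. Its second probe was lit on no array, with intensities of 3.88, 3.70, 5.00 and 4.30. On the palmitate slide neither array measured Aim2. Of the 24 spots around the Aim2 spot, 1 was also well above background on the untreated Drp1LiKO array alone, beside a mean of 0.592 per spot over that array.

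Pycard, the ASC adaptor that links sensors to caspase-1, was well above background on all 4 arrays, with intensities of 208, 222, 170 and 189. The normalised levels were -1.22, -1.29, -1.32 and -1.31, and the genotype difference was -0.07 in untreated and 0.01 in palmitate-treated cells. A second probe with this gene's name lies on the opposite strand and was lit on no array.

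Casp1 encodes caspase-1, the protease of the canonical inflammasomes. Its single probe had intensities of 9.21 ± 4.18 in control and 66.5 ± 7.68 in Drp1LiKO, and of 5.27 ± 5.30 and 70.1 ± 8.36 in the same groups with palmitate, where the errors are the scanner's estimates for 1 spot. Both Drp1LiKO arrays were well above background and neither control array was. The difference was therefore a lower bound, at least 3.26-fold in untreated and at least 2.69-fold in palmitate-treated cells, with measured normalised levels of -5.72 and -3.03 without and -6.33 and -2.74 with palmitate. The normexp model with its offset of 50, in place of the scanner's correction, gave log2 differences of 0.68 and 0.84. Both lie under the 2-fold threshold. The size of the Casp1 difference therefore depends on the correction and its offset, whose parts were not separated.

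Casp4 encodes caspase-11, the lipopolysaccharide-binding caspase of the non-canonical pathway, and its probe was lit on all 4 arrays. The intensities were 46.5 ± 6.15 in control and 880 ± 88.1 in Drp1LiKO, and 58.2 ± 7.66 in control and 1526 ± 153 in Drp1LiKO with palmitate. Both Drp1LiKO values lay far above both control values, and the highest value was that of Drp1LiKO with palmitate. On the normalised scale Casp4 was 16.9-fold higher in untreated Drp1LiKO than in control cells (log2 difference 4.08) and 23.7-fold higher under palmitate (log2 difference 4.57). Among the genes well above background on both arrays compared, this difference was the 10th highest of 17652 in untreated cells and the 2nd highest of 16784 under palmitate. Casp4 was chosen with these values known, so the ranks are a description only. Over the alternative settings tried, the log2 difference lay between 2.98 and 4.08 in untreated and between 3.62 and 4.57 in palmitate-treated cells.

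Gsdmd encodes gasdermin D, the pore former that both caspases cut. Its brighter probe had intensities of 1518, 1349, 1585 and 1327, and its second probe, at chr15:75695520-75695884 in mm9, had 251, 214, 277 and 230. On both probes and both slides the Drp1LiKO array was the lower one, with log2 differences of -0.33 and -0.40 on the brighter probe and -0.39 and -0.42 on the second, untreated first. None of these reached 2-fold, and the representative probe stayed lower under every setting tried, between -0.51 and -0.30 in untreated and between -0.55 and -0.37 in palmitate-treated cells. Il18, the substrate of caspase-1 that needs cleavage before secretion, had intensities of 647, 637, 683 and 708 and log2 differences of -0.18 and -0.09. The RNA of the pore former and of the cytokine precursor was present in control cells and differed by less than 2-fold between genotypes. RNA levels do not report on cleavage of either protein.

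Casp1 and Casp4 are neighbours on chromosome 9, their probes 29.4 kb apart in mm9, and the next protein-coding gene in the RefSeq order (GRCm38.p6) is Casp12, another caspase of the inflammatory group. Casp12 had intensities of 6.41, 95.6, 4.87 and 105 on its representative probe. As with Casp1, both Drp1LiKO arrays were well above background and neither control array was, giving at least 4.69-fold in untreated and at least 4.03-fold in palmitate-treated cells, with measured levels of -6.24 and -2.50 without and -6.44 and -2.16 with palmitate. The second Casp12 probe, at 3.71, 24.3, 4.73 and 45.7, was lit on the same arrays. The Casp12 probe shares no run over 6 bases with that of Casp1 and none over 5 bases with that of Casp4. Again only the probes were compared, and binding to the transcripts of the other caspases was not tested. The neighbouring genes outside the caspases stayed near 0. On the Casp1 side, Msantd4 differed by 0.04 and 0.03 between genotypes and Aasdhppt by 0.00 and -0.06. On the Casp12 side, Dync2h1 differed by -0.03 and -0.11 and Dcun1d5 by -0.22 and -0.15. Gria4, Kbtbd3, Gucy1a2, Pdgfd and Ddi1 lie among them and were lit on no array.

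**Figure D2:**
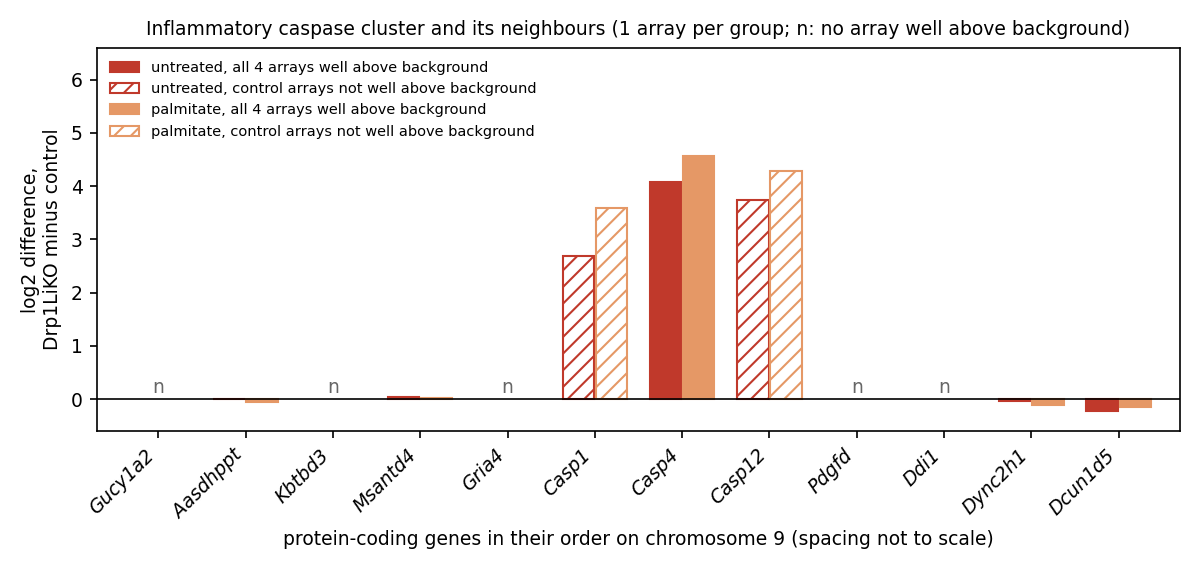
Log2 difference between Drp1LiKO and control for protein-coding genes in their chromosome order around Casp1, Casp4 and Casp12, untreated (dark) and with palmitate (light), 1 array per group. Hatched bars are measured differences of genes whose control arrays were not well above background, and n marks genes not well above background on any array. The 3 caspases stand between 2.69 and 4.57, and the 4 other measured genes between -0.22 and 0.04.

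Caspases of other groups were described for comparison. Casp2, Casp6, Casp8 and Casp9, which act in apoptosis, were lit on all 4 arrays, and the genotype differences of their representative probes lay between -0.37 and 0.33. For Casp8, which can also cleave gasdermin D, the differences were -0.31 and -0.37. A second Casp2 probe, lit on all 4 arrays, differed by 0.80 and -0.07. Each of these 4 genes lay under 2-fold on both slides, whereas Casp12 was past it on both.

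The sequence before the start sites of Casp1 and Casp4 is shown because these neighbours were both higher on the Drp1LiKO arrays and because interferon-induced genes are among the nearest profiles described next. RefSeq promoters (GRCm38.p6) were at hand for 7 of the 8 members, all but Gsdmd, and the 250 bases before each start were searched on both strands. The motifs were the interferon-stimulated response element (GAAA, any 2 bases, GAAA), the gamma-activated site TTCNNNGAA and the NF-kB site. They are found in 2.98%, 7.02% and 7.25% of 32851 promoters of that length. No member's window held these letters of the interferon-stimulated response element or of the gamma-activated site. The NF-kB letters were in the window of Casp4, at 2 places starting 93 and 39 bases before the start site shown. The first place holds overlapping matches, and capitals mark both. From the other Casp4 start site the matches start at 104 and 50 bases. The NF-kB letters were also before 1 start site of Nlrp3, whose sequence is not shown. They were not in the window of Casp1. A match of letters is a description of the sequence and was not tested as a binding site.
Casp1, chr9:5298267-5298516, plus strand: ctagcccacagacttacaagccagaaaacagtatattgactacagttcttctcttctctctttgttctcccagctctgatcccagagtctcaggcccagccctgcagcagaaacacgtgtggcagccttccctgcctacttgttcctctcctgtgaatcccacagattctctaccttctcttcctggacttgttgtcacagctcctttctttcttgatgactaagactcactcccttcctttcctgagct
Casp4, chr9:5308599-5308848, plus strand: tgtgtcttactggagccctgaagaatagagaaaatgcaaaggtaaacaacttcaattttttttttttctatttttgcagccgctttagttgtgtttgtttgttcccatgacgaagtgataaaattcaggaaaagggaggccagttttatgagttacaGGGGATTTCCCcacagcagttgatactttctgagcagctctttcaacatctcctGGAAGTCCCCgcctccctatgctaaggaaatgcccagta

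Casp4 was the only member that was well above background on all 4 arrays and ranged over at least 2-fold, so it was the one whose profile was compared with those of 16610 other genes measured on all arrays. The 3 genes with the most similar profile, each centred on its own mean, were Oas1g, Ifit3b and Dcn, with root mean square differences of 0.11, 0.17 and 0.20 log2 units over 4 arrays. Oas1g and Ifit3b are interferon-induced antiviral genes, and Dcn encodes decorin, a matrix proteoglycan of stellate cells and fibroblasts. Their genotype differences were 3.84 and 4.37 for Oas1g, 4.22 and 4.16 for Ifit3b, and 4.19 and 4.04 for Dcn. The likeness rests on 4 values per gene.

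The palmitate arrays were set against the untreated arrays within each genotype, with the slide as part of that difference. In control cells 0 of 4 measured members passed 2-fold, beside 5.70% of all genes. Casp4 differed by 0.52, Il18 by 0.28, Gsdmd by 0.26 and Pycard by -0.10. In Drp1LiKO cells 2 of 6 passed, beside 7.04% of all genes, 3.93% higher and 3.11% lower. Casp4 was 2.01-fold higher with palmitate (log2 difference 1.01, with 0.95 to 1.01 over the settings tried, so it lies at the threshold) and Aim2 was at least 2.12-fold lower, with measured levels of -3.43 and -4.61. With normexp the Aim2 difference was -0.20, which is under the threshold. Casp1 differed by 0.29, Il18 by 0.36, Gsdmd by 0.19 and Pycard by -0.02. The palmitate difference of Casp4 was 0.49 larger in Drp1LiKO than in control cells on the log2 scale, an amount that has no replicate check. The palmitate differences of Aim2 diverged by 2-fold or more between genotypes, 1 member beside 10.8% of all genes, but 3 of its 4 values were not well above background. With normexp the Aim2 divergence was -0.64, under the threshold. That of Casp1, which was lit on neither control array, was 0.90 and under the threshold. Over the settings tried it lay between -0.28 and 1.52, and it was past the threshold only with quantile normalization (1.52).

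**Figure D3:**
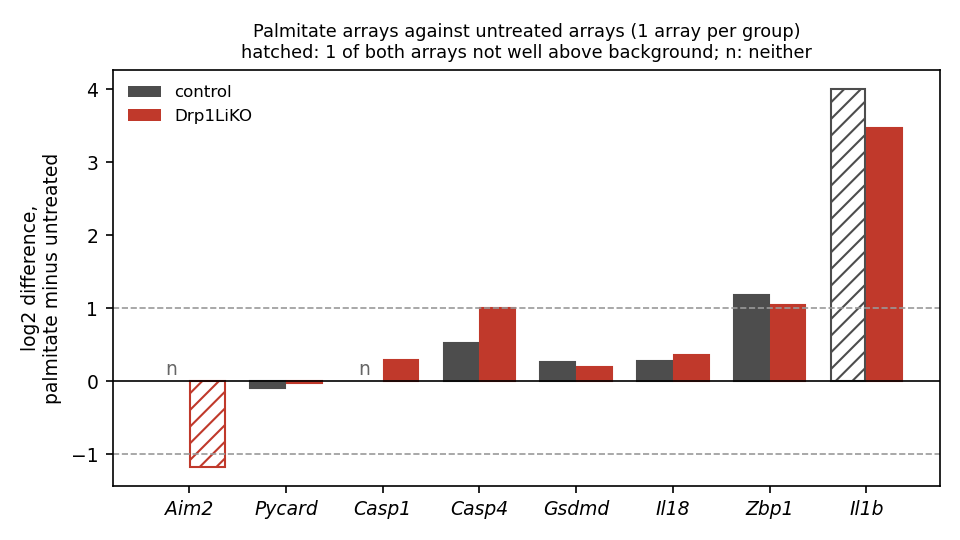
Log2 difference between the palmitate and the untreated array of control (grey) and Drp1LiKO (red) cells, for the members measured and for Zbp1 and Il1b, 1 array per group. Hatched bars had 1 array not well above background, n marks pairs with neither array well above background, and dashed lines mark 2-fold. Casp4 reaches 1.01 in Drp1LiKO and 0.52 in control, while Il1b differs by 3.47 in Drp1LiKO and by a measured 4.00 in control, where its untreated array was not lit.

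The wider pathway was read in 6 lists holding 45 other genes. In untreated cells 9 of the 34 measured were higher by 2-fold in Drp1LiKO and none was lower, and under palmitate 10 of 36 were higher and 1 was lower, by measured difference. Over all genes 8.84% were higher and 5.58% lower in untreated cells, and 7.26% and 4.26% under palmitate. Where 1 array was not lit, the bound stayed under 2-fold for Irgb10 in both comparisons and for Il1a under palmitate, which leaves 8 higher genes on either slide. The medians over all measured genes of the 6 lists were 0.12 and 0.11, close to those of all genes. Among other sensors, Naip5 and Nlrp1a differed by no more than 0.30 in size, and Naip2 by 0.53 and 0.57. Mefv, which encodes pyrin, was well above background on its representative probe only in Drp1LiKO with palmitate, at least 2.84-fold above control with palmitate, with levels of -2.66 and -5.30, and on its second probe only in untreated Drp1LiKO. Nlrp1b, Nlrp6, Nlrp12, Naip1 and Naip6 were lit on no array.

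Among activators and cofactors, 3 of 11 measured differences were higher by 2-fold in untreated and 2 of 11 in palmitate-treated Drp1LiKO cells, beside 8.84% and 7.26% of all genes. Irgb10 is in both counts with a bound under 2-fold. Zbp1, a sensor of Z-form nucleic acid that drives RIPK3-dependent death and inflammasome activation, had levels of -0.90, 1.44, 0.27 and 2.48. It was higher by genotype on both slides (2.34 and 2.21) and with palmitate in both genotypes (1.18 and 1.04), while its second probe was well above background only in Drp1LiKO with palmitate. P2rx7, the ATP-gated channel upstream of Nlrp3, differed by 1.72 and 0.92 on its representative probe. Another P2rx7 probe, lit in untreated Drp1LiKO and in control with palmitate alone, differed by 2.39 and -0.80, so the direction under palmitate depends on the probe. Irgb10, listed on the array as Gm12250, was at least 1.04-fold higher in untreated Drp1LiKO, and under palmitate its bound gave no fold. The kinase Nek7, which Nlrp3 needs to assemble, differed by -0.50 and -0.74, and Ripk3, the necroptosis kinase, by -0.78 and -0.70. Gbp2, an interferon-induced GTPase that helps expose bacterial lipopolysaccharide to caspase-11, differed by 0.79 and 0.76. The remaining members of that list, Txnip, Panx1, Gbp5, Casp8 and Ripk1, lay under 2-fold on their representative probes on both slides. The second Gbp5 probe, lit on both Drp1LiKO arrays alone, differed by 2.50 and 2.34.

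The cytokines downstream diverged. Il1b, the other precursor that caspase-1 cleaves, had levels of -5.91, -3.42, -1.91 and 0.05. In untreated cells, where the control array was not lit, Drp1LiKO was at least 2.50-fold above control, and under palmitate it was 3.89-fold above. With palmitate it was at least 7.09-fold higher in control and 11.0-fold higher in Drp1LiKO cells, so that Il1b had its lowest value in untreated control and its highest in Drp1LiKO with palmitate. Il1a was well above background only in Drp1LiKO with palmitate, at least 1.60-fold above control with palmitate, with levels of -3.49 and -5.22. The receptor Il1r1 was lower in Drp1LiKO, by 0.90 in untreated cells and, past 2-fold, by 1.16 under palmitate on the log2 scale. The accessory chain Il1rap differed by -0.58 and -0.47 on its representative probe and by 0.63 and 0.20 on another probe lit on all arrays, so its direction depends on the probe.

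Inhibitors of the pathway were the list with the highest median among the pathway lists, 1.06 in untreated and 1.13 in palmitate-treated cells. Of 6 measured, 3 were higher by 2-fold in untreated cells and 4 under palmitate, beside 8.84% and 7.26% of all genes. Il18bp, the secreted protein that binds and neutralises interleukin-18, had levels of -0.85, 0.34, -0.59 and 0.81 and differed by 1.18 and 1.40, and its second probe gave 1.11 and 1.42. Il1rn, the interleukin-1 receptor antagonist, differed by 0.94 and 1.03. Serpinb1a, an inhibitor of neutrophil proteases that restrains caspase-1, differed by 1.51 and 1.24, and Trim30a, an interferon-induced protein reported to lower Nlrp3 activity, by 3.02 and 2.52. Tnfaip3 differed by -0.13 and -0.07, and Sigirr by 0.19 and -0.64.

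Of the other lytic effectors, Mlkl, the pore former of necroptosis, differed by 0.71 and 0.55, Gsdme, listed on the array as Dfna5, by -0.24 and -0.43, and Ninj1, which ruptures the membrane after gasdermin pores form, by -0.31 and -0.14. Gsdmc was lit on its representative probe only on the untreated Drp1LiKO array, at least 23.5-fold above control, with an intensity of 479 beside 9.98 to 13.5 on the other arrays. Its second probe differed by -0.28 and 0.33, and 4 of the 24 spots around the bright probe were likewise well above background on the untreated Drp1LiKO array alone.

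**Figure D4:**
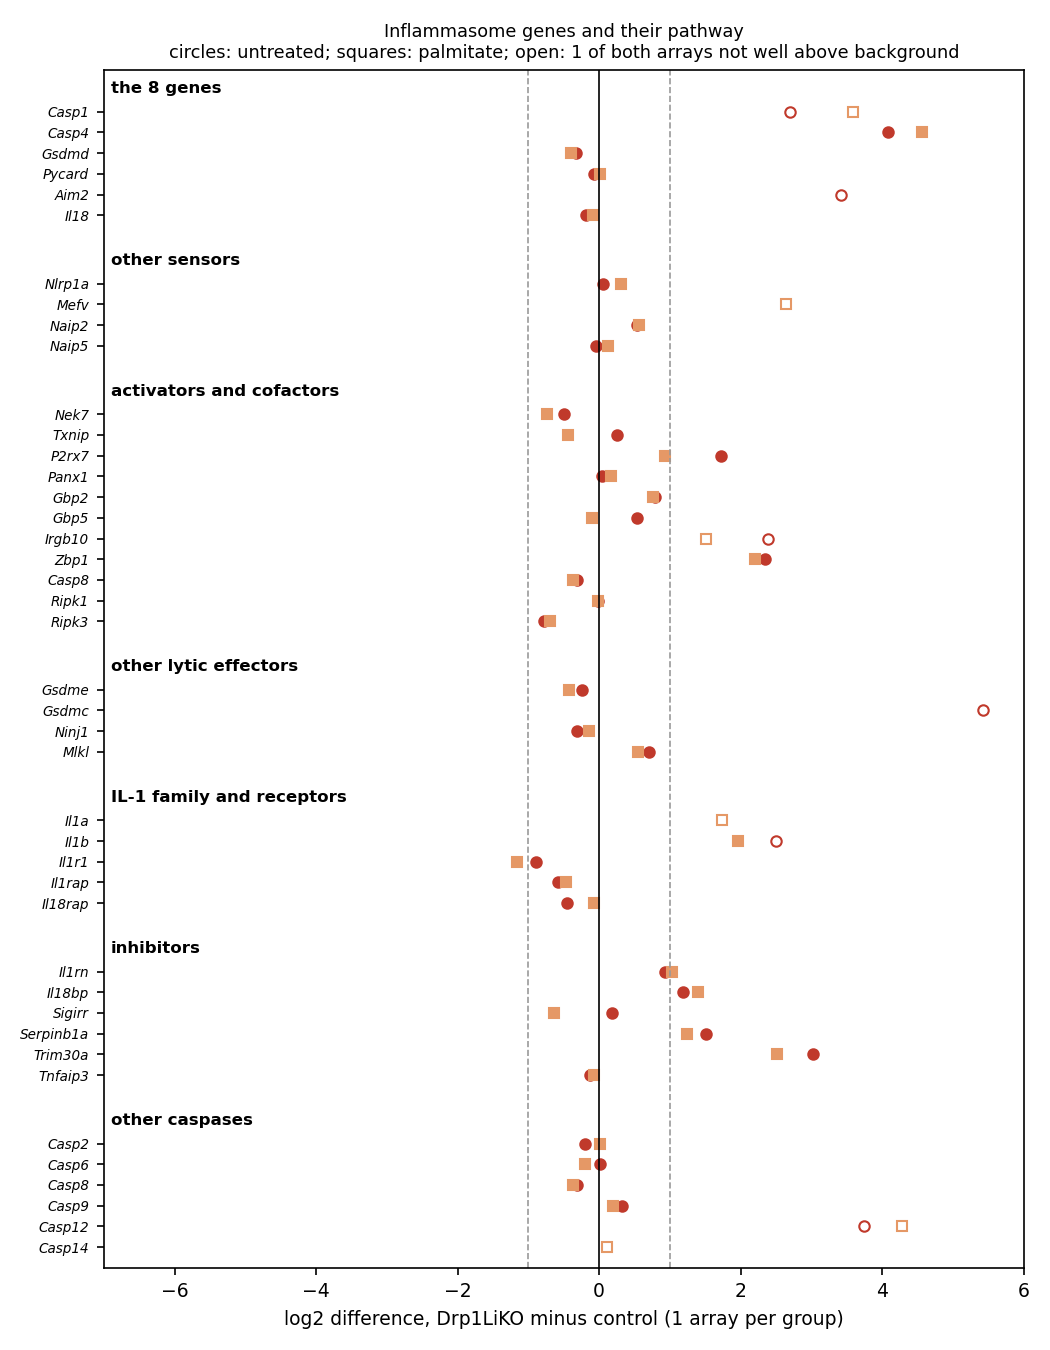
Log2 difference between Drp1LiKO and control for the 8 genes and genes of the 6 pathway lists, untreated (circles) and with palmitate (squares), 1 array per group. Open symbols are measured differences where 1 of both arrays was not well above background, dashed lines mark 2-fold, and genes not lit on either array and items not reported here are left out. Casp4, Zbp1, Trim30a, Serpinb1a and Il18bp are past 2-fold on both slides with filled symbols, while Gsdmd, Pycard and Il18 lie close to 0.

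Genes of inflammasomes are abundant in macrophages, so markers of the cell types a hepatocyte culture can hold were read on the same arrays. In bulk RNA, fewer cells of a type and less RNA per cell cannot be told apart. Of 16 macrophage markers, 14 were measured in untreated and 13 in palmitate-treated cells, of which 11 and 10 were higher by 2-fold in Drp1LiKO, with medians of 2.37 and 1.75. Over all genes 8.84% and 7.26% were higher by 2-fold. The summed level of the macrophage markers, in units of the 75th percentile, was 19.9, 47.8, 25.7 and 45.6. Adgre1, a surface receptor of mature macrophages, differed by 2.44 and 2.10 and Cd68 by 2.01 and 1.69. Clec4f, which defines Kupffer cells, was well above background only on the Drp1LiKO arrays, Timd4 and Cd163 were so on no array, and Ptprc (CD45) differed by 0.16 and -0.02.

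Stellate cell markers had medians of 3.03 and 2.54, with 7 of 9 and 6 of 8 measured markers higher by 2-fold and summed levels of 45.3, 62.6, 46.6 and 59.3. In untreated control 5 of 11 were lit and the median level was -4.81, so the sum rests on the brightest markers. With normexp background correction these medians were 1.06 and 0.60. Endothelial markers had medians of 1.98 and 0.94, with 8 of 11 and 5 of 10 higher by 2-fold. Under palmitate 1 endothelial marker was lower by 2-fold (-2.36). The summed endothelial levels were 2.20, 5.99, 2.30 and 4.15. Neutrophil and lymphocyte markers were mostly not well above background, with 1 to 3 of 9 and 2 to 4 of 10 lit on an array. Cholangiocyte markers had medians of 0.04 and -0.40. Hepatocyte markers had medians of 0.14 and 0.16, with 1 of 10 and 2 of 11 measured higher by 2-fold. Their summed levels were 1279, 1314, 1267 and 1339. Alb (albumin) was at 8.82, 9.03, 8.73 and 9.01, so the cells had the defining RNA of hepatocytes in all groups. Between the untreated and the palmitate array of Drp1LiKO, the median macrophage marker differed by -0.35, the stellate marker by -0.21 and the endothelial marker by -0.68. The macrophage markers went both ways there, from -3.58 to 2.77, with 6 lower and 1 higher by 2-fold and Adgre1 at 0.80, and their median lay between -0.87 and -0.15 over the settings tried. The medians of the macrophage, stellate and endothelial markers, though not every marker, moved with Casp1, Casp4 and Casp12 between the genotypes. The part of these cell types in the result was not tested.

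**Figure D5:**
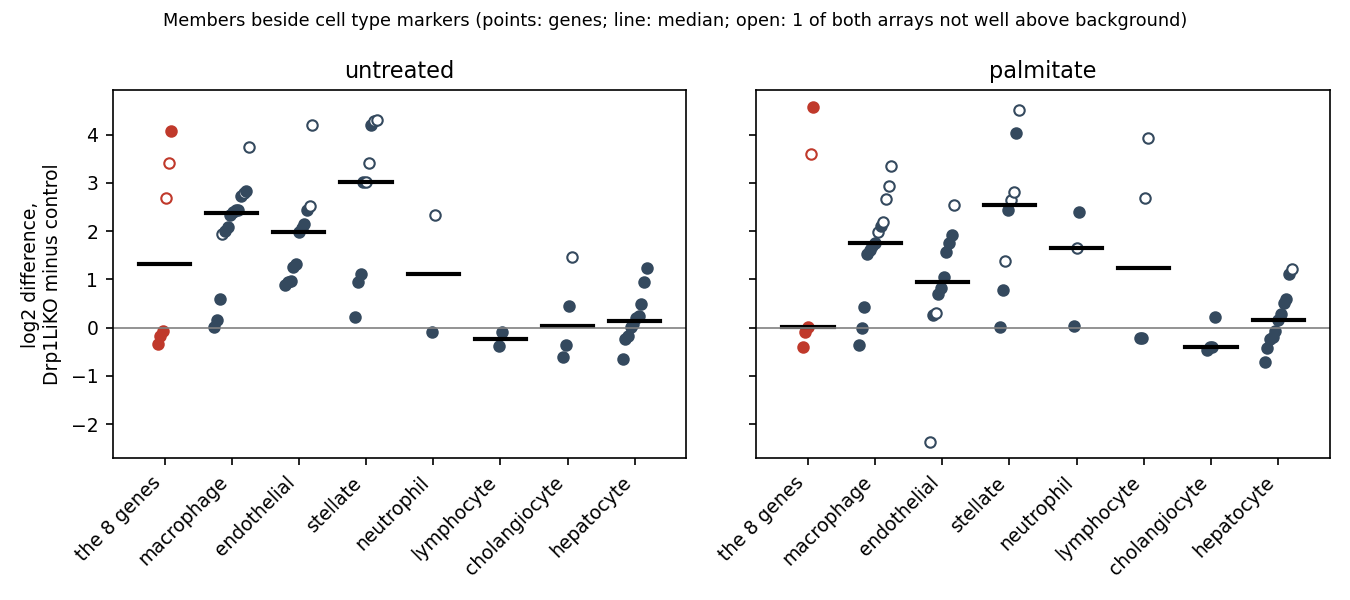
Log2 difference between Drp1LiKO and control for the 8 genes (red) and for marker genes of 7 cell types (blue), untreated and with palmitate, 1 array per group. Each point is a gene measured in that comparison, open where 1 of both arrays was not well above background, and the line is the median. Macrophage, endothelial and stellate medians lie above 0 on both slides and the hepatocyte median at 0.14 and 0.16.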

How the data were processed

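RNA of 4 groups of primary mouse hepatocytes, 1 array each, was hybridised to 1-colour Agilent 60-base arrays. The deposited scanner tables hold the background-corrected intensity of each spot (gProcessedSignal) as the authors' scanner software gave it. Their headers name Feature Extraction 10.7.1.1, whereas the submitters' processing notes name Agilent Feature Extraction 9.5.1.1. A deposited table of processed intensity values, in which the 4 columns share their sorted values and follow the scanner intensity in rank, was read as quantile normalized and used as an alternative (linear scale, median 18.1 in each column).

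Control spots and outlier-flagged spots were left out and spots of a probe were averaged. Values were log2 intensity minus the array's 75th percentile over all non-control spots. Probes flagged as well above background are called lit, and of the probes lit on any array, that of highest mean level stood for its gene. Differences of at least 2-fold with 1 or both arrays lit were counted. Where one group was dim, the fold is a bound against the higher of its own signal and the dimmest signal well above background. Genes named are the members, the pathway and marker lists, Dnm1l and, for members measured on all arrays over a range of 1 log2 unit, the 3 nearest profiles. The chromosomal neighbours of Casp1 and Casp4 were added after their values were seen. Members and lists were chosen with earlier results of these data known. Of 130 listed genes 129 were on the array. Some listed items are included in list counts and medians but are not reported here. Nothing was tested, because each group had 1 array. The script was tested on simulated data. Python 3.11.15, pandas 2.3.3, R 4.3.3 and limma 3.58.1 were used. Alternatives were quantile and median scaling, normexp background correction with an offset of 50, the mean of all probes, stricter and no filters, and dim values raised to the floor. The number of arrays limits the precision.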

Additional observations from a re-analysis of the deposited data

How the results depend on the processing

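No paired analysis was possible because each group had 1 array and the labels carry no replicate numbers, so no replicate could be left out either. Counts of members past 2-fold changed as follows. With normexp background correction they went from 3 to 1 (untreated genotype comparison), from 2 to 1 (genotype under palmitate), from 2 to 0 (palmitate in Drp1LiKO) and from 1 to 0 (difference of palmitate responses), Casp4 being the member left in both genotype comparisons. Requiring both arrays well above background gave 1, 1, 1 and 0, which leaves out genes dim in one group by construction. Median scaling gave 1 for palmitate in Drp1LiKO, quantile normalization 2 for the difference of responses, and no filter 1 for palmitate in control, where the main count was 0. Counts of other pathway genes went from 9 to 5, 11 to 5, 3 to 1 and 6 to 3 with normexp (both genotype comparisons, then palmitate in control and in Drp1LiKO), to 5, 7 and 2 with both arrays required (untreated genotype, genotype under palmitate, palmitate in Drp1LiKO), and to 8 without a filter (palmitate in control). Marker medians under normexp fell to 0.90 (macrophage, palmitate), 0.91 (endothelial, untreated), 0.60 (stellate, palmitate), 1.06 (stellate, untreated, main value 3.03), 1.52 (macrophage, untreated, main value 2.37), 0.41 and 0.53 (neutrophil, untreated and palmitate) and 0.10 (lymphocyte, palmitate). The few neutrophil and lymphocyte markers measured gave medians that changed with the filter. The neutrophil median was 0.94 with median scaling, -0.094 with both arrays required and -0.24 without a filter in untreated cells, and 0.0198 without a filter under palmitate. The lymphocyte median under palmitate was -0.21, -0.12 and 0.13 with both arrays required, no filter and dim values raised to the floor. The endothelial median under palmitate was 1.05 with both arrays required. Untreated and palmitate stellate medians were then 1.11 and 1.61, and with dim values raised to the floor the palmitate stellate median was 1.03. Averaging all probes of Dnm1l gave -0.85 and -0.60. Median scaling moved the median of all genes to -0.20 and -0.17 in the genotype comparisons. The causes were not tested.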
